A study of Mus musculus with 15 samples.

Results

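The genes described here are 31 members of the machinery that folds proteins in the endoplasmic reticulum (ER) and of the unfolded protein response (UPR), measured in mouse brown adipose tissue. They were chosen as a named list: each row of the deposited table whose symbol equals a listed member was taken. All 31 were found among the 24030 symbols, and all 31 passed the filter on low counts that left 15083 genes. The study removed DJ-1, the redox-sensitive protein encoded by Park7, from brown fat only, and compared these knockout mice (KO) with flox mice, which carry the floxed allele without the deletion and are labelled WT. Mice of both genotypes spent 8 weeks either at 29 °C or at room temperature. This gave 3 KO libraries at 29 °C, 4 WT libraries at 29 °C, 4 KO libraries at room temperature and 4 WT libraries at room temperature. The sources used here do not give the Cre driver, the sex or age of the mice, or whether each library is a separate animal. P-values measure only the spread between libraries within groups, estimated over all 4 groups together. That spread may be technical. Other cells of the tissue keep DJ-1 under a brown-fat-specific deletion, and in bulk tissue fewer cells of a type and less RNA per cell cannot be told apart.

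Secreted and membrane proteins enter the ER through the Sec61 channel and are folded there by chaperones, lectins and disulfide isomerases, and those that fail are pulled back to the cytosol and degraded, a route called ER-associated degradation (ERAD). When unfolded proteins build up, the sensors IRE1 (Ern1), PERK (Eif2ak3) and ATF6 switch on the UPR, which raises transcription of folding and ERAD genes, in part through the ER stress response element (ERSE) bound by ATF6 and XBP1 with NF-Y. Brown fat is rich in mitochondria and lipid, and it changes its protein output strongly with the demand for heat.

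Levels are given as TMM-scaled CPM, that is counts scaled to a common library size, and a gene was called changed at a Benjamini-Hochberg adjusted p under 0.05 in edgeR's quasi-likelihood test across all 15083 genes. Unless another tool is named, each adjusted p below comes from that test. After a mean the ± is the SD and after a log2 fold change the SE, with 3 libraries for KO at 29 °C and 4 for each other group. Library totals ran from 23977448 to 26789246 counts, apart from 38800967 in KO library 1 at 29 °C. Park7 itself averaged 31.7 ± 5.46 CPM in KO and 118 ± 11.1 CPM in WT at 29 °C, and 28.2 ± 4.03 CPM in KO and 110 ± 1.66 CPM in WT at room temperature (SD). The genotype labels therefore fitted the level of the deleted gene, with some transcript left in KO tissue. Ucp1, the uncoupling protein that defines brown adipocytes, averaged 7233 ± 1240 CPM in KO and 1019 ± 203 CPM in WT at 29 °C, against 7001 ± 2502 CPM in KO and 8602 ± 1022 CPM in WT at room temperature. The mitochondrially encoded share of counts was 25.8% to 26.9% in KO and 30.2% to 41.6% in WT at 29 °C, and 22.7% to 25.2% in KO and 25.2% to 27.4% in WT at room temperature. Summed skeletal muscle markers stood at 1571 CPM in WT library 2 at 29 °C and at 604 and 1991 CPM in KO libraries 2 and 3 at 29 °C, and at 30.0 CPM or less in the other 12. The KO libraries at room temperature fell into pairs: the chi-square per gene between their counts was 18.9 for libraries 2 and 4 and 21.6 for libraries 1 and 3, against 46.3 to 77.1 across the pairs, and 12.1 to 20.1 among WT libraries at room temperature. Their summed brown adipocyte markers were 20710 and 18680 CPM in libraries 2 and 4 and 29030 and 24910 CPM in libraries 1 and 3. WT libraries at 29 °C were also uneven. Their chi-square per gene was 21.1 for libraries 1 and 2 and 52.8 to 96.3 for the other pairs. Among KO libraries at 29 °C it was 35.85 to 47.77. Results were therefore also computed without the 3 libraries with muscle transcripts, which leaves KO at 29 °C with 1 library assumed to vary like the others, and without KO libraries 2 and 4 at room temperature.

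Promoters of the members were searched for elements of the UPR. The members were listed as genes of this machinery, so the shares below describe the list and test nothing about it. RefSeq windows of 300 bases on GRCm38.p6, from 250 bases before the annotated start to 50 after it, were matched for 26 of the 31 members (27 windows, since Derl2 has 2). An exact ERSE, meaning CCAAT, then 9 bases of any kind, then CCACG, searched on both strands, was found in 9 of these 26 members (34.6%) and in 37 of 27025 genes with a window (0.137%). Each match is given here in the orientation of the element, 5′ to 3′, with CCAAT and CCACG in capitals, because the spacer differs in every one while these ends are shared by rule.
Hspa5: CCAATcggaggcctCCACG
Hsp90b1, distal: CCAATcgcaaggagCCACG
Hsp90b1, proximal: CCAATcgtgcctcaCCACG
Calr: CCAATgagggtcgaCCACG
Canx: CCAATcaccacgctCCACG
Pdia6: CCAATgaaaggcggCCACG
Dnajc3: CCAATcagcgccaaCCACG
Syvn1: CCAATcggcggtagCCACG
Derl3: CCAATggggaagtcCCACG
Creld2: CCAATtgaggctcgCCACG

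Hsp90b1 held a pair of elements and the other 8 members held 1 each. The Hspa5 element lay at -65 to -47 from the start, that of Syvn1 nearest at -44 to -26, and the distal one of Hsp90b1 farthest at -212 to -194. A shorter element, ERSE-II, meaning ATTGG, 1 base of any kind and CCACG, was found in Dnajb11 and Herpud1, which is 7.69% of the members with a window and 0.0444% of all genes with one.
Dnajb11: ATTGGcCCACG
Herpud1: ATTGGgCCACG
The CHOP/ATF4 composite element TGATGCAA was found in Herpud1 alone (3.85% of members, 1.03% of all genes) and the UPR element TGACGTGG in 0 of 26 members (0.714% of all genes). The motif CCACG on its own was found in 84.6% of members and 35.5% of all genes, and CCAAT in 84.6% and 41.1%. The window of Dnajb9 lies wholly inside the GENCODE gene model, because RefSeq starts that gene further downstream, so it holds no sequence upstream of that model. A match describes letters, not binding.

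**Figure D1:**
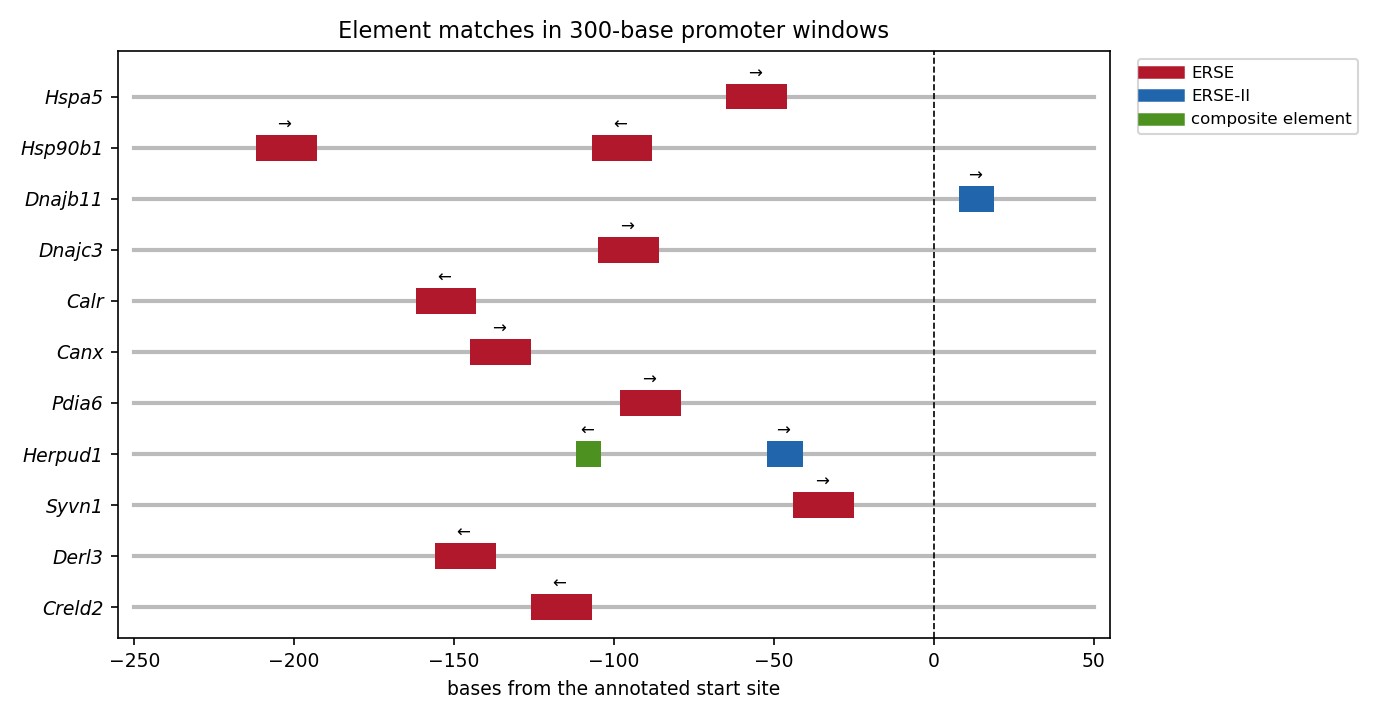
Positions of exact ERSE, ERSE-II and composite-element matches in the 300-base promoter windows of the 11 members that had one, in bases from the annotated start site (dashed line); arrows give the strand of the element relative to the gene. ERSE matches lie upstream of the start in all 9 genes, and the ERSE-II match of Dnajb11 lies after the start.

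Whole windows are shown for 4 ERSE genes whose levels behaved differently below, with the element in capitals on the strand of the gene (reverse complement where the element runs the other way). Hspa5 (chr2:34771840-34772139, plus strand) passed no test. Hsp90b1 (chr10:86705395-86705694, minus strand) was higher at 29 °C in both genotypes. Calr (chr8:84846882-84847181, minus strand) was higher in KO than in WT at 29 °C, and Creld2 (chr15:88819396-88819695, plus strand) was lower.
Hspa5: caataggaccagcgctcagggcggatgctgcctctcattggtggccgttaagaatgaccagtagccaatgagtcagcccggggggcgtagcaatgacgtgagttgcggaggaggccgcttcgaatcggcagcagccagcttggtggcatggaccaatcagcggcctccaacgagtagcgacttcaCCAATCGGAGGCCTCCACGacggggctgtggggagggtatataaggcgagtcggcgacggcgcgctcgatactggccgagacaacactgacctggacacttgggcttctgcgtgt
Hsp90b1: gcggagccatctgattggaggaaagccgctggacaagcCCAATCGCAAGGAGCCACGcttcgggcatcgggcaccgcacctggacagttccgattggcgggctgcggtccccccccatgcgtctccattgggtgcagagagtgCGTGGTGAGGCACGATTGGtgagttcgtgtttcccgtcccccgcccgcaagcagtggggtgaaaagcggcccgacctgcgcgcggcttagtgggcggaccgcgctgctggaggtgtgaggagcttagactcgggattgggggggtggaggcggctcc
Calr: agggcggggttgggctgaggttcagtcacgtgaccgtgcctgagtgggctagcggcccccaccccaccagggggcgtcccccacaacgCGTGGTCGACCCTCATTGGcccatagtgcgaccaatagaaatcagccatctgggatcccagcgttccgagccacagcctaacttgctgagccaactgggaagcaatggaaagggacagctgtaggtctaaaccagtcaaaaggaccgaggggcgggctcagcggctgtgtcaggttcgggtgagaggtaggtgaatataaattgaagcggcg
Creld2: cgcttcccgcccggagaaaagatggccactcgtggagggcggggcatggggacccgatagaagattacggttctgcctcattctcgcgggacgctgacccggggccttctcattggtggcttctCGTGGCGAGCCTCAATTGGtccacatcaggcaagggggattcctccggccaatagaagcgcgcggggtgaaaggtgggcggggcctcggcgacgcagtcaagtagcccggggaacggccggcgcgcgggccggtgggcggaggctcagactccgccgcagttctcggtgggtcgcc

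KO and WT tissue at 29 °C differed in 15 of the 31 genes: 13 were higher in KO, led by the co-chaperone Dnajb9, the ERAD channel component Derl1 and the Hsp70 relative Hyou1, and Creld2 and Sec61b were lower. Called genes made up 48.4% of the members, against 44.7% of all genes tested, so the share called was near the background; by direction it was 41.9% higher and 6.45% lower, against 24.7 and 20% of all genes. The median log2 fold change of the 31 was 0.19, against 0.04 over all genes. In 13 members the 3 KO libraries did not overlap the 4 WT libraries, which is 41.9%, against 43.1% of all genes. Only Dnajb9, Hyou1 and Derl1 passed a 1.5-fold limit as well, against 27.7% of all genes. Members higher in KO numbered 7 without the 3 libraries with muscle transcripts, 7 in a fit of only the libraries compared and 8 with no filter, with 2 lower in each. Summed brown adipocyte markers also stood higher, at 18150 to 22160 CPM in KO and 11290 to 12110 CPM in WT at 29 °C. Within that sum Ucp1 averaged 7233 CPM in KO and 1019 CPM in WT. The part of these markers in the counts of members was not tested.

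WT tissue at 29 °C differed from WT tissue at room temperature in 22 of the 31 genes, with 16 lower and 6 higher at 29 °C. That is 71.0% of the members, against 68.8% of all genes, with 51.6% lower and 19.4% higher among members, against 32.8% and 35.9% of all genes. The median was -0.29, against 0.06 over all genes, and groups did not overlap in 22 members (62.6% of all genes). With a 1.5-fold limit 4 were higher and 5 lower, against 51.3% of all genes. KO tissue at 29 °C differed from KO tissue at room temperature in 9 of the 31 genes, 5 higher and 4 lower, which is 29.0% against 46% of all genes (24.3% higher and 21.7% lower), with a median of 0.01 against 0.04. In that comparison the groups did not overlap in 15 members, against 48.1% of all genes, and 3 members passed the 1.5-fold limit, against 29% of all genes. Members higher at 29 °C in KO numbered 1 without the 3 libraries with muscle transcripts, 2 without KO libraries 2 and 4 at room temperature and 3 with no filter, with 4 to 5 lower. Of the 22 not called, 6 passed when 1 library was left out: Pdia4 and Creld2 without KO library 2 and Ern1 without KO library 3 at 29 °C, Ppib without WT library 2 or 4 at 29 °C, Pdia6 without KO library 3 or 4 and Derl2 without KO library 3 at room temperature. The comparison of genotypes at 29 °C and that of housing in WT use the same 4 WT libraries at 29 °C, so their values are set side by side below and not related to each other.

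KO and WT tissue at room temperature differed in 0 of the 31 genes by edgeR's quasi-likelihood test, against 0.239% of all genes (0.053% higher and 0.186% lower); 2 of 31 had an unadjusted p under 0.05 (11.1% of all genes), and DESeq2 and limma-voom also called 0. The median was -0.04, against 0.01 over all genes. Xbp1, the transcription factor made by IRE1 splicing, and Herpud1 were the 2 genes. Xbp1 had 83.1, 71.6, 98.7 and 79.6 CPM in KO and 58.3, 63.8, 70.9 and 43.9 CPM in WT at room temperature. It was the only member whose groups did not overlap there (8.21% of all genes), the lowest KO library lying just above the highest WT library, and its log2 fold change was 0.49 ± 0.14 (SE, adjusted p = 0.206). Counts per gene do not separate its spliced and unspliced transcripts.

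**Figure D2:**
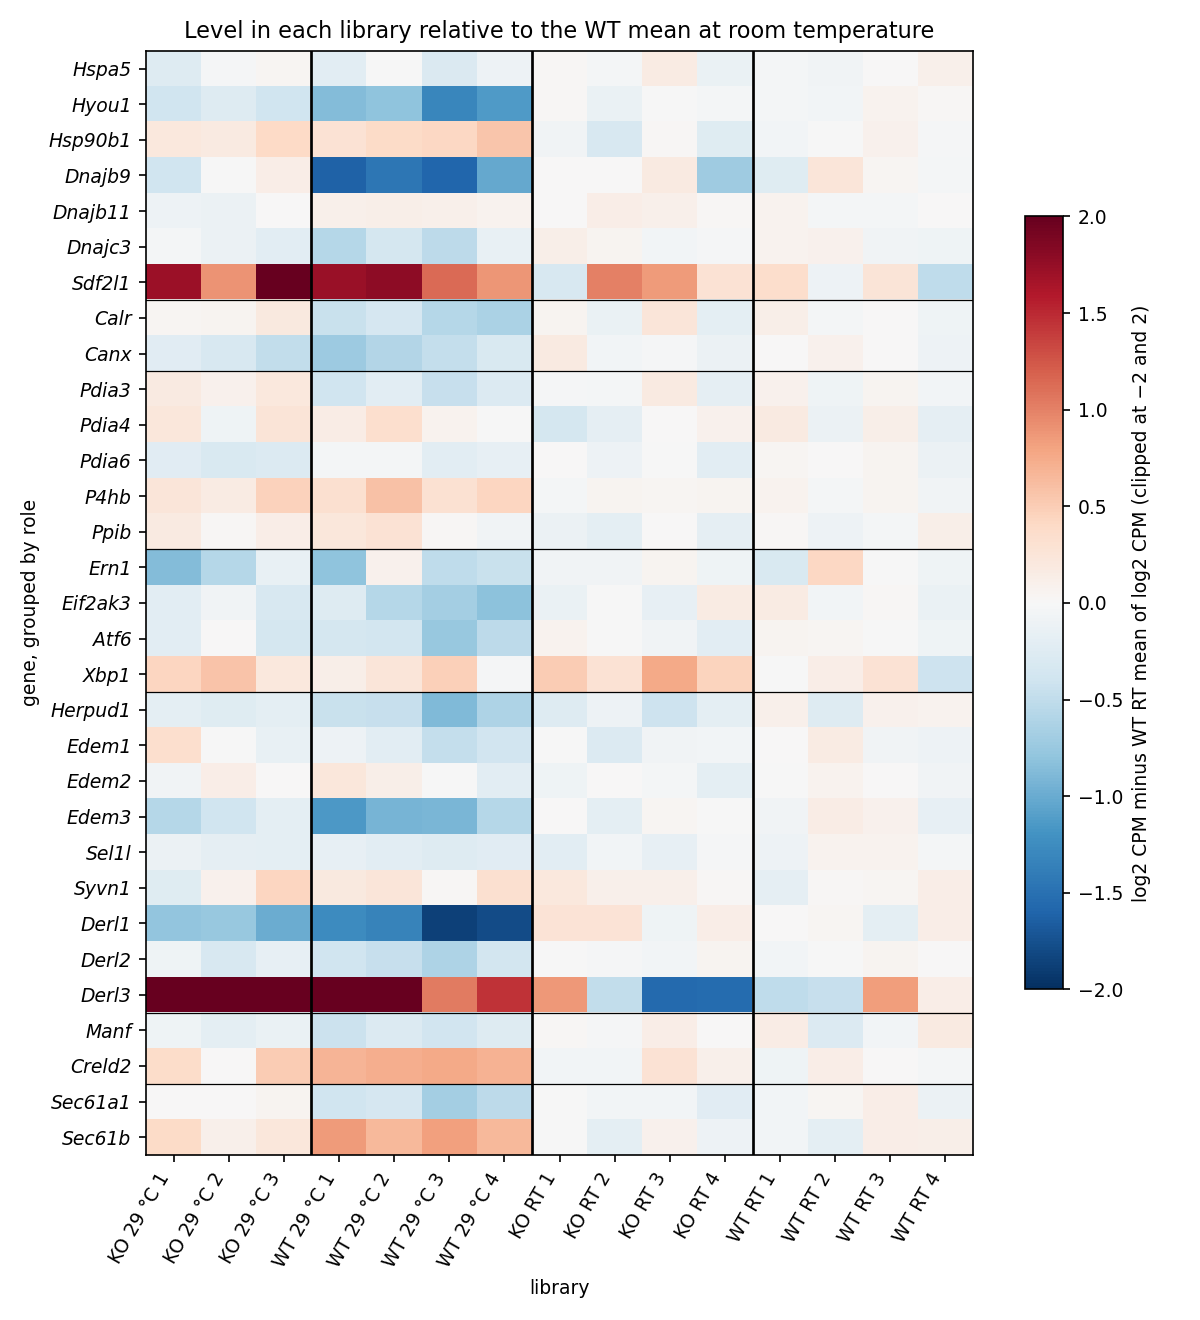
Log2 CPM of each member in each library minus the mean of log2 CPM over the 4 WT libraries at room temperature; rows are grouped by role, in the order Hsp70 and Hsp90 chaperones with co-chaperones, lectins, isomerases, sensors and transcription factors, degradation, secreted proteins and translocon. In WT at 29 °C Dnajb9, Hyou1, Edem3 and Derl1 stand lowest and Sdf2l1 and Derl3 highest, and colours are clipped at -2 and 2.

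Of the 7 Hsp70 and Hsp90 chaperones and co-chaperones, 3 were higher in KO than in WT at 29 °C and 0 lower. Over all genes 24.7% were higher and 20% lower. Dnajb9 (ERdj4), a co-chaperone of BiP that also helps silence IRE1, had the largest fold of any called member in that comparison (chr12:44205559-44210326, minus strand, GRCm38). It had 37.2, 48.7 and 53.6 CPM in KO and 16.1, 18.1, 16.4 and 24.1 CPM in WT at 29 °C. At room temperature it had 49.4, 49.3, 55.8 and 30.0 CPM in KO and 41.5, 58.2, 50.2 and 47.9 CPM in WT. The 4 WT libraries at 29 °C lay below all the others, and KO library 4 at room temperature lay below the rest of its group. KO exceeded WT at 29 °C by a log2 fold change of 1.32 ± 0.20, or 2.49-fold (adjusted p = 9.45e-05), and 29 °C was below room temperature in WT by -1.41 ± 0.19 (adjusted p = 8.54e-06). In KO the housing difference was 0.01 ± 0.20 (adjusted p = 0.973).

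Hyou1 (GRP170), the large Hsp70 relative that acts as nucleotide exchange factor for BiP, lies at chr9:44379490-44392369 on the plus strand. It had 68.8, 76.4 and 69.3 CPM in KO and 49.8, 51.9, 36.8 and 41.3 CPM in WT at 29 °C. At room temperature it had 92.2, 82.8, 90.1 and 88.6 CPM in KO and 88.6, 88.0, 95.1 and 92.1 CPM in WT. WT at 29 °C was lowest, KO at 29 °C lay between without touching either side, and the room temperature groups overlapped. The log2 fold change was 0.67 ± 0.10 for KO against WT at 29 °C (adjusted p = 9.53e-05), -1.02 ± 0.10 for 29 °C against room temperature in WT (adjusted p = 1.58e-07) and -0.31 ± 0.11 in KO (adjusted p = 0.0253). The last call was lost without KO library 1 at room temperature or KO library 1 or 3 at 29 °C, where its adjusted p reached 0.0786.

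Hspa5 (BiP), the central Hsp70 of the ER and the usual readout of the UPR, was not called in any comparison. It had 292, 341 and 359 CPM in KO and 300, 347, 286 and 323 CPM in WT at 29 °C. At room temperature it had 354, 338, 390 and 317 CPM in KO and 339, 331, 349 and 376 CPM in WT. All 4 groups overlapped, with log2 fold changes of 0.08 ± 0.10 for KO against WT at 29 °C (adjusted p = 0.570) and -0.15 ± 0.09 for 29 °C against room temperature in WT (adjusted p = 0.156).

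Hsp90b1 (GRP94), the Hsp90 of the ER, passed the test for housing in both genotypes and did not pass it for genotype. It had 246, 240 and 280 CPM in KO and 260, 276, 282 and 312 CPM in WT at 29 °C. At room temperature it had 202, 171, 217 and 180 CPM in KO and 205, 211, 226 and 208 CPM in WT. Every library at 29 °C lay above every library at room temperature. The difference between housings was 0.41 ± 0.10 in KO (adjusted p = 0.00295) and 0.41 ± 0.09 in WT (adjusted p = 0.000746), and that between genotypes at 29 °C was -0.15 ± 0.10 (adjusted p = 0.235). The KO call was lost without the 3 libraries with muscle transcripts (0.27, adjusted p = 0.185) and without KO libraries 2 and 4 at room temperature (0.28, adjusted p = 0.0590). A pseudogene on the opposite strand, 1810014B01Rik, covers 14.7% of the exon bases of Hsp90b1, and the sources used here do not say whether counting used strand.

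Sdf2l1, a partner of BiP co-chaperones and a known UPR target, was a low-abundance gene. It had 4.26, 2.40 and 5.27 CPM in KO and 4.30, 4.45, 2.84 and 2.38 CPM in WT at 29 °C, against 1.03, 2.61, 2.34 and 1.59 CPM in KO and 1.66, 1.2, 1.55 and 0.909 CPM in WT at room temperature. Housing separated the WT libraries fully and the KO libraries in part. Its log2 fold change for 29 °C against room temperature was 1.39 ± 0.32 in WT (adjusted p = 0.00108) and 1.07 ± 0.33 in KO (adjusted p = 0.0141, or 0.0855 without KO library 3 at 29 °C and 0.0631 without the 3 libraries with muscle transcripts). Dnajc3 (P58IPK), a co-chaperone that also restrains PERK, ranged over 57.3 to 63.9 CPM in KO and 44.6 to 59.7 CPM in WT at 29 °C, and 63.3 to 71.8 CPM in KO and 62.2 to 70.2 CPM in WT at room temperature. It was called higher in KO at 29 °C (0.27 ± 0.10, adjusted p = 0.0395) although 1 pair of libraries overlapped, and lower at 29 °C in WT (-0.39 ± 0.09, adjusted p = 0.00157). The genotype call was lost without any single one of KO libraries 1 and 2 or WT libraries 1, 2 and 3 at 29 °C, or KO library 3 at room temperature, with the adjusted p reaching 0.132. It was lost as well without the 3 libraries with muscle transcripts (adjusted p = 0.221), without KO libraries 2 and 4 at room temperature (0.0554), in a fit of only the libraries compared (0.200), with no filter (0.161), without mitochondrially encoded genes (0.0941) and with RLE size factors (0.0524). Dnajb11 (ERdj3), the secreted co-chaperone of BiP, ranged over 38.6 to 41.8 CPM in KO and 44.0 to 45.1 CPM in WT at 29 °C. Its groups did not overlap there, yet it was not called (-0.17 ± 0.07, adjusted p = 0.0682). It passed without KO library 3 at 29 °C or KO library 3 at room temperature. It also passed with a stricter filter (adjusted p = 0.0401), without mitochondrially encoded genes (0.0260) and in DESeq2 (0.0251). Without mitochondrially encoded genes it passed as well for housing in WT (0.16, adjusted p = 0.0498) and for the interaction of genotype and housing (-0.29, adjusted p = 0.0412). DESeq2 called that interaction too (adjusted p = 0.0432).

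**Figure D3:**
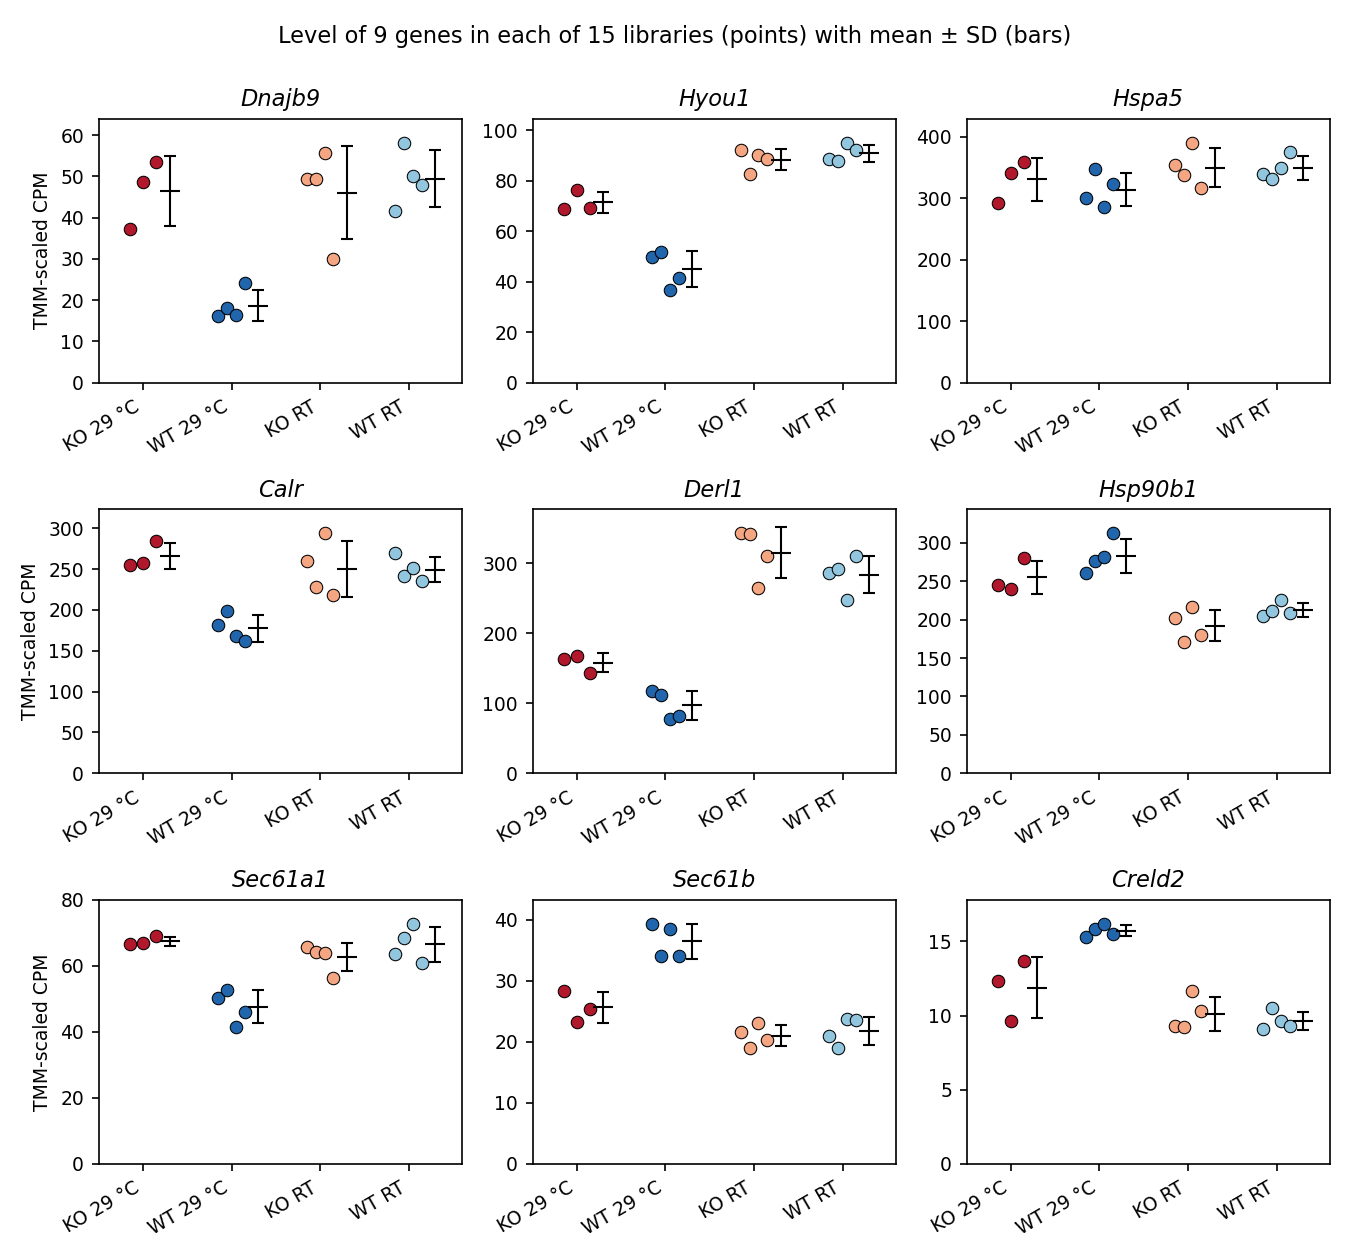
TMM-scaled CPM of 9 members in each of the 15 libraries (points), with the mean and SD of each group (bar beside the points); groups run KO and WT at 29 °C, then KO and WT at room temperature (RT), and each axis starts at 0. Dnajb9, Hyou1, Calr, Derl1 and Sec61a1 are lowest in WT at 29 °C, Sec61b and Creld2 are highest there, and Hspa5 overlaps across all groups.

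The 2 lectin chaperones, which bind glycoproteins during folding, were both lower in WT at 29 °C than in WT at room temperature. Over all genes 32.8% were lower. Calreticulin (Calr) had 255, 258 and 285 CPM in KO and 182, 198, 168 and 161 CPM in WT at 29 °C. At room temperature it had 260, 228, 294 and 218 CPM in KO and 270, 242, 251 and 236 CPM in WT. WT at 29 °C lay below every other library, and the other groups overlapped. Its log2 fold change was 0.58 ± 0.11 for KO against WT at 29 °C (adjusted p = 0.000381) and -0.49 ± 0.10 for housing in WT (adjusted p = 0.000367), against 0.09 ± 0.11 in KO (adjusted p = 0.522). Calnexin (Canx), the membrane-bound counterpart, had 190, 179 and 159 CPM in KO and 135, 148, 159 and 179 CPM in WT at 29 °C, and 205 to 251 CPM in KO and 207 to 236 CPM in WT at room temperature. Genotypes overlapped at both temperatures (0.18 ± 0.10 at 29 °C, adjusted p = 0.179). Canx was lower at 29 °C in KO (-0.34 ± 0.11, adjusted p = 0.0155) and in WT (-0.52 ± 0.10, adjusted p = 0.000186), and the KO call was lost without KO library 3 at 29 °C or KO library 1 at room temperature, where the adjusted p reached 0.0800, and without the 3 libraries with muscle transcripts (adjusted p = 0.182).

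Over all genes 44.7% were called between genotypes at 29 °C. Among the 5 isomerases, Pdia3 (ERp57), the disulfide isomerase that works with the lectins, was the only one called there. It had 174, 163 and 179 CPM in KO and 117, 133, 112 and 128 CPM in WT at 29 °C. At room temperature it had 152, 149, 175 and 136 CPM in KO and 163, 146, 160 and 149 CPM in WT. WT at 29 °C was again below all other libraries. The log2 fold change was 0.49 ± 0.09 for KO against WT at 29 °C (adjusted p = 0.000546) and -0.33 ± 0.09 for housing in WT (adjusted p = 0.00300). P4hb (PDI), the most studied disulfide isomerase, went the other way with housing: it ranged over 93.0 to 114 CPM in KO and 102 to 124 CPM in WT at 29 °C, and 80.9 to 86.6 CPM in KO and 78.8 to 87.3 CPM in WT at room temperature. It was higher at 29 °C in KO (0.26 ± 0.09, adjusted p = 0.0251) and in WT (0.41 ± 0.08, adjusted p = 0.000419), and did not pass between genotypes at 29 °C (-0.12 ± 0.09, adjusted p = 0.308). The KO call was lost without KO library 3 at 29 °C or KO library 1 or 3 at room temperature, the adjusted p reaching 0.158. It was also lost without the 3 libraries with muscle transcripts (adjusted p = 0.410), without KO libraries 2 and 4 at room temperature (0.0674) and with no filter (0.132). Pdia4 (ERp72), Pdia6 (P5) and the proline isomerase Ppib (cyclophilin B) were not called in any comparison. At 29 °C Pdia4 averaged 35.3 ± 4.46 CPM in KO and 35.2 ± 3.78 CPM in WT. Pdia6 averaged 96.7 ± 3.11 CPM in KO and 108 ± 6.66 CPM in WT without overlap (-0.16 ± 0.08, adjusted p = 0.133). For housing in KO, where its adjusted p was 0.0592, Pdia6 passed without KO libraries 2 and 4 at room temperature, with RLE size factors, no filter or the replicate block and in DESeq2 (adjusted p of 0.0210 to 0.0464). Ppib averaged 81.9 ± 4.39 CPM in KO and 82.1 ± 9.63 CPM in WT. Its adjusted p for housing in KO was 0.0551. That comparison passed without mitochondrially encoded genes (adjusted p = 0.0484), with a stricter filter (0.0380) and in a fit of only the libraries compared (0.0451). Of the exon bases of Ppib, 57.6% are shared with Snx22 on the opposite strand, so its counts are uncertain.

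Among the 4 sensors and transcription factors, the PERK and ATF6 transcripts were higher in KO than in WT at 29 °C, with overlapping groups. Eif2ak3 (PERK), the kinase that slows translation under ER stress, had 13.7, 15.1 and 12.6 CPM in KO and 13.2, 10.7, 9.82 and 8.96 CPM in WT at 29 °C, and ranged over 14.1 to 17.8 CPM in KO and 14.4 to 17.7 CPM in WT at room temperature. Its log2 fold change was 0.37 ± 0.13 for genotype at 29 °C (adjusted p = 0.0298) and -0.57 ± 0.12 for housing in WT (adjusted p = 0.000618). Atf6, the membrane-bound factor released by cleavage, had 41.7, 48.6 and 37.7 CPM in KO and 38.1, 37.3, 28.7 and 33.7 CPM in WT at 29 °C, and 41.5 to 50.5 CPM in KO and 45.6 to 50.1 CPM in WT at room temperature. Only the highest WT library reached into the KO range in each gene. The Atf6 log2 fold change was 0.31 ± 0.11 for genotype at 29 °C (adjusted p = 0.0305) and -0.49 ± 0.10 for housing in WT (adjusted p = 0.000465). Both genotype calls rested on few libraries: each was lost without KO library 1 or 2 or WT library 3 or 4 at 29 °C or KO library 3 at room temperature, that of Eif2ak3 also without WT library 2 at 29 °C, and the adjusted p reached 0.123 for Eif2ak3 and 0.182 for Atf6. Both were also lost without the 3 libraries with muscle transcripts (adjusted p = 0.306 for Eif2ak3 and 0.257 for Atf6), in a fit of only the libraries compared (0.116 and 0.156), with no filter (0.0784 and 0.105) and without mitochondrially encoded genes (0.0521 and 0.0640). Both housing calls in WT held when any 1 library was left out. Xbp1 ranged over 67.2 to 86.5 CPM in KO and 57.6 to 81.2 CPM in WT at 29 °C and was not called (0.19 ± 0.16, adjusted p = 0.340). Ern1 (IRE1), the kinase and nuclease that splices Xbp1, was low throughout, at 2.16 to 3.57 CPM in KO and 2.26 to 4.19 CPM in WT at 29 °C and 3.74 to 4.11 CPM in KO and 3.19 to 5.24 CPM in WT at room temperature. It was not called for genotype at 29 °C (-0.12 ± 0.23, adjusted p = 0.694) or for housing in WT (-0.40 ± 0.21, adjusted p = 0.0950), and the housing comparison passed without WT library 2 at 29 °C. Without the 3 libraries with muscle transcripts it passed for housing in WT (-0.62, adjusted p = 0.0124) and in KO (-0.90, adjusted p = 0.0346).

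The degradation genes held 5 of the 13 members that were higher in KO at 29 °C, and 6 of the 9 were lower in WT at 29 °C than in WT at room temperature. Over all genes 24.7% were higher in KO at 29 °C and 32.8% were lower at 29 °C in WT. Derl1 (derlin-1; chr15:57869502-57892448, minus strand), a membrane component of the ERAD channel, had 164, 167 and 143 CPM in KO and 118, 112, 77.3 and 81.6 CPM in WT at 29 °C. At room temperature it had 343, 341, 265 and 311 CPM in KO and 285, 291, 248 and 311 CPM in WT. Both groups at 29 °C lay far below both groups at room temperature, and within 29 °C every KO library exceeded every WT library. The log2 fold change was 0.70 ± 0.14 for KO against WT at 29 °C (adjusted p = 0.000948), -1.54 ± 0.14 for housing in WT (adjusted p = 5.98e-08) and -1.0 ± 0.15 for housing in KO (adjusted p = 6.05e-05). Derl2, its relative, ranged over 32.4 to 38.3 CPM in KO and 26.4 to 31.6 CPM in WT at 29 °C and 39.01 to 42.23 CPM over both genotypes at room temperature. It was higher in KO at 29 °C (0.27 ± 0.08, adjusted p = 0.0151) and lower at 29 °C in WT (-0.46 ± 0.08, adjusted p = 7.18e-05). The genotype call on Derl2 was lost without KO library 1 at 29 °C or KO library 3 at room temperature, the adjusted p reaching 0.0811. It was also lost without the 3 libraries with muscle transcripts (adjusted p = 0.0927), in a fit of only the libraries compared (0.151) and with no filter (0.105).

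Herpud1 (HERP), a UPR-induced protein that assembles ERAD complexes, had 51.9, 50.4 and 52.1 CPM in KO and 43.5, 43.2, 32.4 and 38.7 CPM in WT at 29 °C. At room temperature it had 49.5, 55.3, 44.6 and 52.1 CPM in KO and 63.6, 49.9, 63.4 and 62.1 CPM in WT. The KO libraries overlapped between housings, while the WT libraries at 29 °C lay below all other libraries. The log2 fold change was 0.38 ± 0.11 for genotype at 29 °C (adjusted p = 0.0118), -0.60 ± 0.11 for housing in WT (adjusted p = 0.000104), 0.03 ± 0.11 for housing in KO (adjusted p = 0.846) and -0.25 ± 0.11 for genotype at room temperature (adjusted p = 0.404). The genotype call at 29 °C was lost without the 3 libraries with muscle transcripts (0.37, adjusted p = 0.132) and in a fit of only the libraries compared (0.34, adjusted p = 0.0597). Edem3, one of the mannosidase-like proteins that mark glycoproteins for disposal, had 28, 31.3 and 36.1 CPM in KO and 18.7, 21.8, 21.9 and 28.1 CPM in WT at 29 °C, against 36.3 to 42.8 CPM in KO and 37.2 to 45.9 CPM in WT at room temperature. One WT library reached the lowest KO library at 29 °C. It was higher in KO at 29 °C (0.49 ± 0.13, adjusted p = 0.00487), lower at 29 °C in WT (-0.88 ± 0.12, adjusted p = 6.43e-06) and lower at 29 °C in KO (-0.35 ± 0.13, adjusted p = 0.0345), the last call being lost without KO library 1 or 2 at 29 °C or KO library 1 or 4 at room temperature (adjusted p up to 0.148), and without KO libraries 2 and 4 there (adjusted p = 0.0516). The genotype call was lost without the 3 libraries with muscle transcripts, where the log2 fold change was 0.22 (adjusted p = 0.425).

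Edem1, of the same family, ranged over 65.3 to 90.7 CPM in KO and 51.6 to 67.1 CPM in WT at 29 °C, and 59.5 to 71.8 CPM in KO and 67.2 to 80.6 CPM in WT at room temperature. Its calls were near the threshold: 0.36 ± 0.12 for genotype at 29 °C (adjusted p = 0.0209) and -0.29 ± 0.11 for housing in WT (adjusted p = 0.0287). The genotype call was lost without KO library 1 or WT library 3 at 29 °C or KO library 3 at room temperature (adjusted p up to 0.166), in a fit of only the libraries compared (0.108) and with no filter (0.0554). The housing call was lost without WT library 3 or 4 at 29 °C or WT library 1 or 2 at room temperature (adjusted p up to 0.0971), without mitochondrially encoded genes (0.0693) and with a stricter filter (0.0504). Edem2, the third member, was not called in any comparison, at 21.3 ± 1.53 CPM in KO and 21.5 ± 2.71 CPM in WT at 29 °C. The ubiquitin ligase Syvn1 (HRD1) was not called either, at 37.1 ± 8.58 CPM in KO and 39.2 ± 3.30 CPM in WT at 29 °C, but it passed as lower in KO at 29 °C without the 3 libraries with muscle transcripts (-0.50, adjusted p = 0.0315). Its partner Sel1l was called for housing in WT alone, with a log2 fold change of -0.22 ± 0.07 (adjusted p = 0.0132, or 0.0609 without mitochondrially encoded genes).

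Derl3, the third derlin, was at the bottom of the measured range at room temperature, with 5, 2, 1 and 1 rounded counts in KO and 2, 2, 5 and 3 in WT. At 29 °C it had 39, 18 and 41 counts in KO and 21, 20, 7 and 8 in WT, or 0.927, 0.676 and 1.42 CPM in KO and 0.728, 0.664, 0.242 and 0.323 CPM in WT. All 7 libraries at 29 °C exceeded all 8 at room temperature. The fitted log2 fold change for housing was 3.36 ± 0.54 in KO (adjusted p = 0.000124) and 1.92 ± 0.52 in WT (adjusted p = 0.00385), with sizes that depend on the handful of counts at room temperature. The genotype difference at 29 °C was 1.03 ± 0.43 (adjusted p = 0.0644), with overlapping groups, and passed without WT library 1 or 2 at 29 °C or KO library 1 at room temperature, and in limma-voom (adjusted p = 0.0291). Of 11 plasma and B cell markers tested, 5 were higher in KO than in WT at 29 °C (Jchain, Mzb1, Cd79a, Cd79b and Ms4a1) and 0 lower. Over all genes 24.7% were higher and 20% lower. The joining chain Jchain averaged 103 ± 48.4 CPM in KO and 12.8 ± 4.62 CPM in WT at 29 °C, against 1.06 ± 1.07 CPM in KO and 0.871 ± 0.479 CPM in WT at room temperature. The plasma cell chaperone Mzb1, named after its values were seen, averaged 4.15 ± 1.32 CPM in KO and 0.205 ± 0.0591 CPM in WT at 29 °C. Other markers of the list were ordered differently. Irf4 averaged 10.8 ± 9.22 CPM in KO and 3.45 ± 2.08 CPM in WT at 29 °C, against 64.2 ± 52.9 CPM in KO and 102 ± 19.2 CPM in WT at room temperature. Tnfrsf17, too low to be tested, averaged 0.188 ± 0.139 CPM in KO and 0.256 ± 0.0699 CPM in WT at 29 °C. The part of these cells in the Derl3 values was not tested.

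Of the 2 secreted UPR proteins, Creld2, an ER resident released under stress, was lower in KO than in WT at 29 °C. It had 12.3, 9.62 and 13.7 CPM in KO and 15.3, 15.8, 16.2 and 15.5 CPM in WT at 29 °C. At room temperature it had 9.27, 9.23, 11.7 and 10.3 CPM in KO and 9.06, 10.5, 9.61 and 9.31 CPM in WT. WT at 29 °C stood above every other library. The log2 fold change was -0.40 ± 0.12 for genotype at 29 °C (adjusted p = 0.0126, or 0.0860 without KO library 2 at 29 °C and 0.0816 without the 3 libraries with muscle transcripts) and 0.71 ± 0.11 for housing in WT (adjusted p = 3.65e-05). Manf, a secreted factor that protects cells under ER stress, had 47.6, 44.3 and 46.4 CPM in KO and 37.6, 42.0, 39 and 42.3 CPM in WT at 29 °C. These groups did not overlap but the difference was not called (0.20 ± 0.10, adjusted p = 0.124). In WT it was lower at 29 °C (-0.35 ± 0.09, adjusted p = 0.00366), against 41.8 to 57.8 CPM at room temperature.

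The 2 subunits of the Sec61 channel changed in opposite directions between genotypes at 29 °C and between housings in WT. Sec61a1, the pore-forming subunit (chr6:88503579-88518905, minus strand), had 66.6, 66.9 and 69.0 CPM in KO and 50.3, 52.8, 41.5 and 46.0 CPM in WT at 29 °C. At room temperature it had 65.9, 64.2, 64.1 and 56.4 CPM in KO and 63.8, 68.5, 72.8 and 61 CPM in WT. WT at 29 °C was below all other libraries. Its log2 fold change was 0.50 ± 0.09 for genotype at 29 °C (adjusted p = 0.000461) and -0.48 ± 0.09 for housing in WT (adjusted p = 0.000140). For housing in KO it was 0.11 ± 0.09, not called (adjusted p = 0.369) although the KO groups did not overlap, and for genotype at room temperature -0.09 ± 0.09 (adjusted p = 0.763). Sec61b, the small subunit, had 28.3, 23.3 and 25.4 CPM in KO and 39.3, 34.0, 38.6 and 34.0 CPM in WT at 29 °C. At room temperature it had 21.6, 19.1, 23.0 and 20.3 CPM in KO and 21.0, 18.9, 23.8 and 23.5 CPM in WT. WT at 29 °C was above all other libraries here. Its log2 fold change was -0.51 ± 0.11 for genotype at 29 °C (adjusted p = 0.00114), 0.74 ± 0.10 for housing in WT (adjusted p = 5.45e-06) and 0.29 ± 0.11 for housing in KO (adjusted p = 0.0339). For genotype at room temperature it was -0.05 ± 0.10 (adjusted p = 0.889). The call for housing in KO was lost without KO library 1 or 3 at 29 °C or KO library 2, 3 or 4 at room temperature (adjusted p up to 0.160), without KO libraries 2 and 4 there together (0.250), without the 3 libraries with muscle transcripts (0.101) and with no filter (0.135). An antisense transcript, Gm44170, covers 17.3% of the exon bases of Sec61a1.

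**Figure D4:**
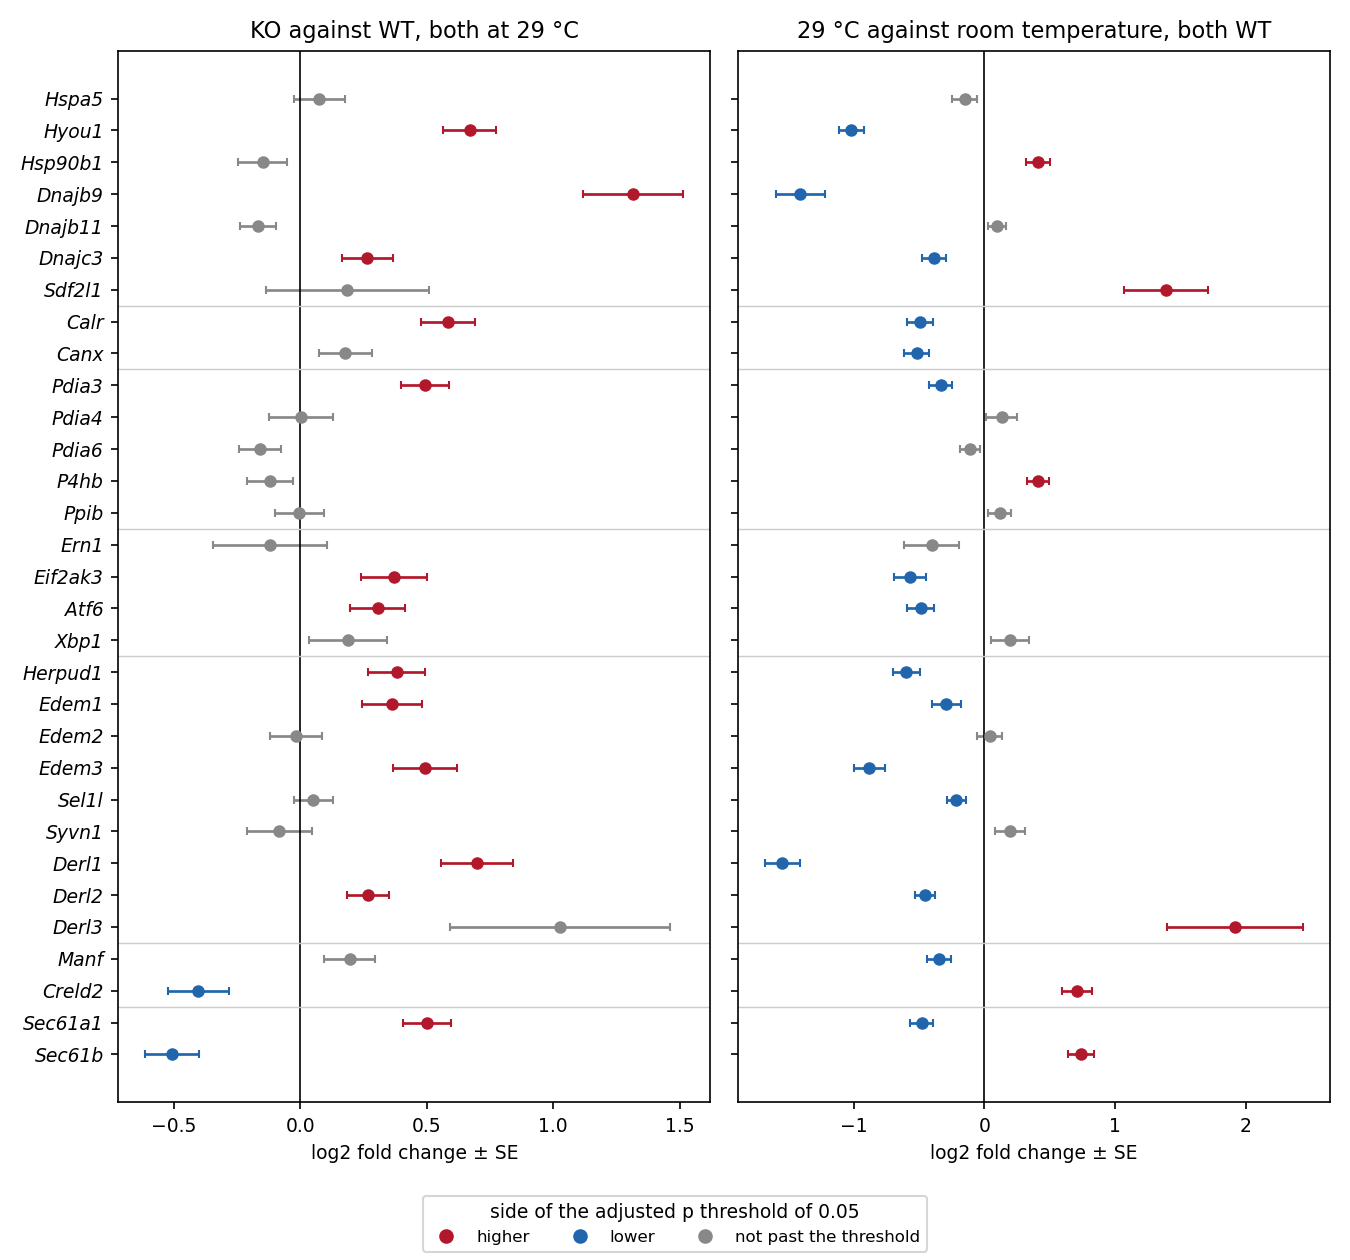
Log2 fold change with its SE for all 31 members, KO against WT at 29 °C (left) and 29 °C against room temperature in WT (right), from edgeR's quasi-likelihood fit; red and blue mark genes past the adjusted p threshold of 0.05, higher and lower, and grey those not past it. Both panels use the same 4 WT libraries at 29 °C, so their opposite signs are not independent.

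The genotype difference itself differed between housings in 11 members, by the interaction term of the same fit (the KO minus WT log2 difference at 29 °C less that at room temperature). This is 35.5% of the members, against 28.3% of all genes, with 9 positive and 2 negative, against 16% and 12.3% of all genes. Past a 1.5-fold limit there were 4, all positive, against 21.6% of all genes. The 9 were Dnajb9 (1.42 ± 0.27, adjusted p = 0.00144), Hyou1 (0.71 ± 0.14, adjusted p = 0.00176), Herpud1, Sec61a1, Calr, Derl1, Edem3, Pdia3 and Edem1, and the 2 were Creld2 and Sec61b. Hyou1, Herpud1 and Sec61a1 kept the call in all alternatives tried. That of Dnajb9 was lost only when the 3 libraries with muscle transcripts were left out, where its adjusted p was 0.0661. The calls on Calr (adjusted p = 0.0694) and Pdia3 (adjusted p = 0.0512) were lost there too. The call on Sec61b was lost there (adjusted p = 0.150), and without KO library 2 at 29 °C or WT library 1 or 2 at room temperature (adjusted p up to 0.0859). Those on Edem1, Edem3, Derl1 and Creld2 each ended on leaving out any 1 of 9 or 10 of the 15 libraries, from all 4 groups, with the adjusted p reaching 0.151 for Edem1, 0.0782 for Edem3, 0.126 for Derl1 and 0.124 for Creld2. All 4 were also lost without KO libraries 2 and 4 at room temperature (adjusted p of 0.0621 to 0.133). Without the 3 libraries with muscle transcripts, those on Edem3, Derl1 and Creld2 were lost (adjusted p = 0.444, 0.107 and 0.108), and Syvn1 passed (-0.59, adjusted p = 0.0380). Members not called passed without 1 library in 4 cases: Eif2ak3 without WT library 1, Dnajc3 without WT library 4, Derl2 without KO library 2 and Atf6 without KO library 3, all at 29 °C. Of the sensors, 0 of 4 had a called interaction, with adjusted p values of 0.0813 to 0.913.

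Levels of different genes were compared per kilobase of exon (GENCODE exon union on GRCm38). In WT at 29 °C the order was led by Hsp90b1, followed by Ppib (92 CPM per kb), Hspa5 (83.6), Calr (81.2) and Sec61b (64.7), against Calr (114), Hspa5 (92.9), Derl1 (89.4), Ppib (84.9) and Hsp90b1 (75.2) in WT at room temperature. Derl1 stood at 49.7 CPM per kb in KO and 30.6 in WT at 29 °C, against 99.2 in KO and 89.4 in WT at room temperature. Among sensors in WT at room temperature, Atf6 had 6.67, Eif2ak3 3.27 and Ern1 0.492 CPM per kb. The 7 chaperones and co-chaperones there ran from 1.2 CPM per kb in Sdf2l1, below Atf6 and Eif2ak3, through 12.9 in both Dnajc3 and Dnajb11, to 92.9 in Hspa5. Summed over the 31 genes, the level ran from 2464 to 2553 CPM in KO and from 2043 to 2299 CPM in WT at 29 °C, and from 2484 to 2751 CPM in KO and from 2614 to 2659 CPM in WT at room temperature.

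Members with an ERSE were called in both directions. Of the 9, KO against WT at 29 °C gave 2 higher (Calr, Dnajc3), 1 lower (Creld2) and 6 not called, with a median log2 fold change of 0.08. The 17 windowed members without an ERSE gave 7 higher, 1 lower and 9 not called, with a median of 0.19. These 17 include Dnajb11 and Herpud1, which hold an ERSE-II, and Dnajb9, whose window holds no sequence upstream of its GENCODE model. Taking ERSE and ERSE-II together, 11 members gave 3 higher, 1 lower and 7 not called, with a median of 0.08. Over all genes 24.7% were higher and 20% lower. For housing in WT, 3 of the 9 were higher at 29 °C (Hsp90b1, Derl3, Creld2), 3 lower (Calr, Canx, Dnajc3) and 3 not called (Hspa5, Pdia6, Syvn1). Of the 17 without an ERSE, 3 were higher, 8 lower and 6 not called. Over all genes 35.9% were higher and 32.8% lower. These counts are descriptions, and the 5 members without a window, among them Hyou1 and Derl1, are not in them.

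Genes of the same pathways outside the list showed counts in the same directions in the comparison of genotypes at 29 °C. Over all genes tested, 24.7% were higher and 20% lower in KO, with a median log2 fold change of 0.04. Of 21 other ERAD genes tested, 16 were higher and 2 lower in KO, with a median log2 fold change of 0.48. The ubiquitin ligase Rnf139 was higher by 1.06 ± 0.13 (adjusted p = 8.99e-06), the ligase Rnf5 by 1.04 ± 0.12 (adjusted p = 9.47e-06) and Ufd1l, a cofactor of the p97 ATPase that extracts ERAD clients, by 0.61 ± 0.08 (adjusted p = 1.60e-05). Of 23 other folding genes, 11 were higher and 4 lower (median 0.30), and of 27 translocation and glycosylation genes 10 were higher and 1 lower (median 0.14). Named among these, Serp1, which stabilises membrane proteins under stress, was higher by 0.57 ± 0.10 (adjusted p = 0.000429), the prolyl isomerase Fkbp7 by 0.43 ± 0.09 (adjusted p = 0.00147), the oligosaccharyltransferase subunit Dad1 by 0.50 ± 0.08 (adjusted p = 8.05e-05) and the translocon-associated Ssr3 by 0.46 ± 0.09 (adjusted p = 0.000635). The prolyl isomerase Ppic was lower by a log2 fold change of -1.11 ± 0.10 (adjusted p = 1.14e-06), and Sec61g, the third Sec61 subunit, of -0.55 ± 0.11 (adjusted p = 0.000914), the same direction as Sec61b. Of 20 other UPR signalling genes, 8 were higher and 2 lower (median 0.28). Those with the smallest p were the ER membrane protein Wfs1 (1.01 ± 0.15, adjusted p = 8.00e-05), the protease Mbtps2 that cleaves ATF6 (0.78 ± 0.12, adjusted p = 0.000119) and Eif2s1, the translation factor that PERK phosphorylates (0.55 ± 0.10, adjusted p = 0.000510). Genes of this list were not ordered alike. At 29 °C Ddit3 (CHOP) averaged 32.2 ± 3.15 CPM in KO and 47.3 ± 6.76 CPM in WT. Atf4 averaged 163 ± 29.2 CPM in KO and 202 ± 35.5 CPM in WT, and Ppp1r15a 43.6 ± 3.64 CPM in KO and 26.3 ± 6.12 CPM in WT. At room temperature 0 genes of these lists were called between genotypes, which is near the 0.239% of all genes called there.

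For 29 °C against room temperature in WT, more genes of each list were lower than higher. This comparison uses the same WT libraries at 29 °C as that of genotypes, so the 2 are not related to each other. Over all genes tested, 35.9% were higher and 32.8% lower at 29 °C, with a median log2 fold change of 0.06. Of the other ERAD genes 2 were higher and 16 lower at 29 °C (median -0.62), of the other folding genes 3 and 12 (median -0.32), of translocation and glycosylation genes 2 and 15 (median -0.24), and of other UPR signalling genes 5 and 10 (median -0.18). Among the other ERAD genes, those with the smallest p were Ufd1l (-0.81 ± 0.07, adjusted p = 7.14e-08), Erlec1, a lectin of ERAD (-0.91 ± 0.08, adjusted p = 9.37e-08), and Rnf5 (-1.27 ± 0.12, adjusted p = 1.05e-07). All of these were lower. Among folding genes Serp1 (-0.91 ± 0.10, adjusted p = 5.86e-07) and the thioredoxin-domain Txndc11 (-0.85 ± 0.09, adjusted p = 7.94e-07) were lower, and Ppic was higher (1.67 ± 0.10, adjusted p = 9.03e-10). Among glycosylation genes the glucosidase subunit Prkcsh (-0.91 ± 0.09, adjusted p = 2.97e-07), the oligosaccharyltransferase Stt3b (-0.83 ± 0.09, adjusted p = 3.69e-07) and Ssr3 (-0.78 ± 0.08, adjusted p = 4.93e-07) were lower. Among UPR signalling genes the transcription factor Nfe2l1 (-1.0 ± 0.10, adjusted p = 3.52e-07), Wfs1 (-1.34 ± 0.15, adjusted p = 5.81e-07) and Crebrf (-1.07 ± 0.13, adjusted p = 3.00e-06) were lower. With a 1.5-fold limit 5 genes of that list were higher and 7 lower. Some stood higher in WT at 29 °C than in WT at room temperature. Ddit3 averaged 47.3 ± 6.76 CPM against 22.7 ± 3.73 CPM, and Atf4 202 ± 35.5 CPM against 105 ± 13.2 CPM.

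**Figure D5:**
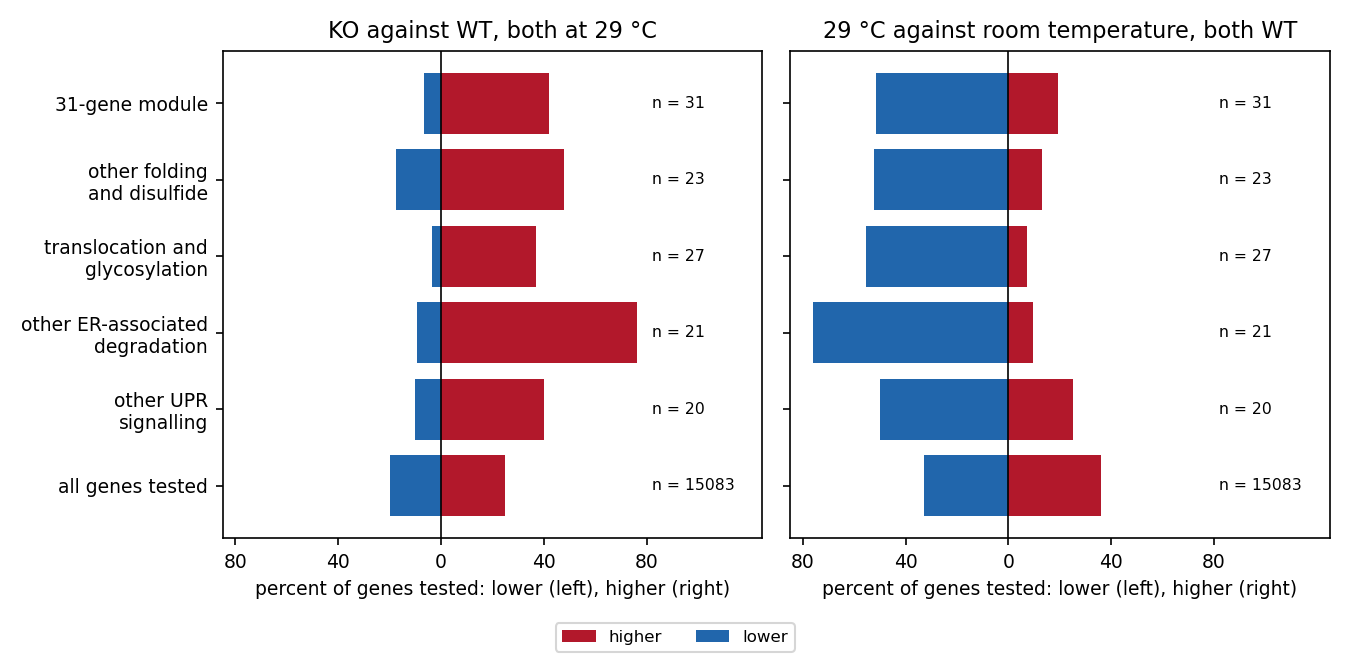
Percent of tested genes called higher (red, right of 0) and lower (blue, left of 0) at an adjusted p under 0.05 in the 31-gene module, in 4 other lists of the same pathways and over all genes tested, for KO against WT at 29 °C and for 29 °C against room temperature in WT; n is the number tested. In the left panel the 31 genes had 41.9% higher and 6.45% lower, against 24.7% and 20% of all genes.

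Markers of the cells in the tissue moved with the same groups. Over all genes 24.7% were higher and 20% lower in KO than in WT at 29 °C. Of 15 brown adipocyte markers, 10 were higher and 1 lower, with a median log2 fold change of 1.27. Their summed level was 18150 to 22160 CPM in KO and 11290 to 12110 CPM in WT at 29 °C. At room temperature it was 18680 to 29030 CPM in KO and 24980 to 26310 CPM in WT. Much of the difference at 29 °C lay in Ucp1, which averaged 7233 CPM in KO and 1019 CPM in WT. Fabp4 (7021 and 6639 CPM) and Cidea (1719 and 1567 CPM) differed little there. Cox7a1 (206 and 237 CPM) and Cox8b (404 and 578 CPM) averaged lower in KO. Of 12 endothelial markers, 12 were lower in KO than in WT at 29 °C, with sums of 789 to 1096 CPM in KO and 1822 to 2516 CPM in WT, against 614 to 800 CPM in KO and 735 to 925 CPM in WT at room temperature. Fibroblast markers had 7 of 10 higher and 1 lower in KO at 29 °C (1051 to 1222 CPM in KO, 572 to 1043 CPM in WT). Macrophage markers had 4 of 10 higher (385 to 570 CPM in KO, 221 to 333 CPM in WT), and T and NK cell markers 9 of 9 (20.9 to 39.9 CPM in KO, 7.02 to 8.67 CPM in WT). Plasma and B cell markers had 5 of 11 tested higher (102 to 185 CPM in KO, 20.9 to 32.4 CPM in WT, against 26.0 to 137 CPM in KO and 97.97 to 137 CPM in WT at room temperature), in a list that includes Irf4, which brown adipocytes also express. Skeletal muscle markers had 0 of 14 called in that comparison. For housing in WT, 14 of 15 brown adipocyte markers were lower at 29 °C and 0 higher. Higher there were 12 of 12 endothelial and 10 of 14 skeletal muscle markers, with 0 lower. Over all genes 35.9% were higher and 32.8% lower. For housing in KO, brown adipocyte markers had 1 higher and 2 lower, endothelial markers 7 higher and skeletal muscle markers 10 higher. Over all genes 24.3% were higher and 21.7% lower. The part of these cell types in the values of the 31 genes was not tested.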

How the data were processed

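Brown adipose tissue RNA of 15 libraries was analysed from 1 deposited table of expected counts per gene symbol, which the authors made with RSEM 1.2.28 after STAR 2.7.10a alignment of 150 bp read pairs to mm10, per the submitters' processing notes, which also name DESeq2 1.3.40. The annotation and the strand setting are not given in the sources used here. A symbol-level count cannot separate transcripts, and 24 symbols had been turned into spreadsheet dates.

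The expected counts were rounded to whole counts. Genes passing filterByExpr by group (minimum count 10) were scaled by TMM, and edgeR 4.0.16 under R 4.3.3 fitted 4 group means over all 15 libraries by its robust quasi-likelihood procedure (11 residual degrees of freedom). P-values were adjusted by Benjamini-Hochberg over all 15083 genes in each of 5 comparisons, and the test was checked on simulated data. Folds are log2. The labels do not say whether replicate numbers pair libraries, and the main fit did not pair them. Deviations of same-numbered libraries correlated at -0.276 to 0.33. Differently numbered libraries were not compared in this way, so these values cannot settle the question. No pair of libraries of a group agreed within sampling noise.

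Members and lists were chosen with earlier results of these data known. Every member is accounted for; from each other pathway list up to 3 called genes with the smallest p are named. Alternatives were RLE factors, no mitochondrially encoded genes, other filters, DESeq2 1.42.0, voom in limma 3.58.1, the replicate number as a block, a fit of only the groups compared, a 1.5-fold limit, and libraries left out. Promoters came from RefSeq and exon lengths from GENCODE, both GRCm38, the build mm10. Depth limits the precision of Derl3, Sdf2l1 and Ern1 most.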

Additional observations from a re-analysis of the deposited data

Results flagged for a closer look

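Single libraries stood apart in 2 of 93 groups of 4 tested among the members (2.15%, where chance gives about 1 in 20). Herpud1 in WT library 2 at room temperature had 49.9 CPM, against 62.1 to 63.6 CPM in the other 3, a gap of 0.888 of the range of the group. Ern1 in KO library 3 at room temperature had 4.11 CPM, against 3.74 to 3.75 CPM in the other 3, a gap of 0.960 of the range. The range itself is narrow: Ern1 had 102 counts in that library and 87, 89 and 92 in the others.

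The genotype difference differed between 29 °C and room temperature in 11 members by edgeR's interaction term. That term is the KO minus WT log2 difference at 29 °C less that at room temperature. The term was 1.42 in Dnajb9, 0.71 in Hyou1, 0.63 in Herpud1, 0.59 in Sec61a1, 0.58 in Calr, 0.55 in Derl1, 0.53 in Edem3, 0.51 in Pdia3 and 0.46 in Edem1. In Creld2 the term was -0.48 and in Sec61b -0.45. The level of brown adipocyte and endothelial markers moved with the same groups, and their part was not tested.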

How the results depend on the processing

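No value of a member changed sign past the threshold: of 3992 values under alternatives, 3778 kept their side, 177 lost and 37 gained a call, and 0 reversed. With a 1.5-fold limit, members higher and lower were 3 and 0 for KO against WT at 29 °C, 4 and 5 for housing in WT, 2 and 1 for housing in KO and 4 and 0 for the interaction, and genes called over all were 4182 for KO against WT at 29 °C and 4374 for housing in KO. Leaving out the 3 libraries with muscle transcripts leaves KO at 29 °C with 1 library, assumed to vary like the others. It gave 7 members higher for KO against WT at 29 °C, 1 for housing in KO, and 4 higher and 1 lower for the interaction, with 4229, 4129 and, at room temperature, 13 genes called over all. No filter gave 8 members higher for KO against WT at 29 °C and 3 for housing in KO, and only the libraries compared gave 7 members higher for KO against WT at 29 °C. Without KO libraries 2 and 4 at room temperature, housing in KO had 2 members higher, the interaction 1 lower, and 5 genes were called between genotypes at room temperature, where DESeq2 called 237. Leaving out mitochondrially encoded genes gave 10 higher and 3 lower for KO against WT at 29 °C and 7 higher and 14 lower for housing in WT. With each library left out in turn, members higher and lower ranged over 8 to 14 and 1 to 3 for KO against WT at 29 °C, 6 to 6 and 15 to 17 for housing in WT, 2 to 7 and 1 to 6 for housing in KO, and 6 to 9 and 0 to 2 for the interaction. Genes called over all ranged over 5374 to 6725, 9781 to 10529, 5490 to 7273 and 3277 to 4563, and over 5 to 60 for genotype at room temperature, where members stayed at 0. The fit with a replicate block, for numbers not known to pair the libraries, gave 13 and 2, 6 and 16, 5 and 5, and 9 and 2 members, and 0 at room temperature. Derl3 has under 6 counts a library at room temperature, so its fold is imprecise.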
